A study of Mus musculus with 8 samples.

Results

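The 86 genes described here code for the nuclear subunits of the oxidative phosphorylation machinery of the mitochondrion. They were taken by symbol from the 54146 genes of the deposited tables: all symbols that begin with Ndufa, Ndufb, Ndufc, Ndufs, Ndufv, Uqcr, Atp5, Cox4, Cox5, Cox6, Cox7 or Cox8, together with Sdha, Sdhb, Sdhc, Sdhd and Cyc1, leaving out 7 Ndufaf assembly factors and 6 pseudogene symbols that end in -ps. By complex, 36 belong to complex I, 4 to complex II, 9 to complex III, 20 to complex IV and 17 to complex V. Ndufa4 and Ndufa4l2 were counted with complex IV, of which NDUFA4 is now known to be a subunit. Cox7a2l, Atp5s and Atp5sl match by symbol although their products are not subunits of the complex they are named after. These are still counted among the subunit genes below.

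RNA-seq libraries, 8 in all, came from astrocytes of the mouse cortex, primary cultures of the main supporting glial cell of the brain grown from cortices of newborn C57BL/6 pups. The cells carried a lentiviral pLKO-puro vector with either a short hairpin RNA against Gstm1, which codes for the detoxifying enzyme glutathione S-transferase mu 1 (GSTM1 KD), or a non-silencing hairpin (control KD), and they were selected with puromycin and depleted of CD11b-positive microglia. Each was left unstimulated (basal) or given TNF-α, an inflammatory cytokine, at 50 ng/ml for 6 h, which gives 4 groups of 2 libraries. All 4 groups therefore share the virus, the selection and the depletion. Cultures were seeded from pooled brains, and the study calls the 2 libraries of a group biological replicates without saying what the replicate numbers mark, so the p-values measure only the spread between these libraries.

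Oxidative phosphorylation passes electrons from NADH through complex I, or from succinate through complex II, to complex III and on by cytochrome c to complex IV, where oxygen is reduced. The proton gradient that complexes I, III and IV build drives ATP synthesis by complex V. Every complex except complex II mixes subunits coded in the nucleus with a few coded in mitochondrial DNA, and astrocytes are known for running glycolysis at a high rate beside respiration.

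Library totals lay between 17349682 and 34434615 expected counts, and the 86 genes together took 0.928% to 1.17% of them. Basal control KD libraries held 8153 and 9644 counts of Gstm1, the targeted gene, and basal GSTM1 KD libraries 676 and 626. With TNF-α these were 4851 and 6492 against 527 and 405, so the knockdown showed in each library labelled with it. Of 12 astrocyte markers, Gfap, Aqp4, Slc1a3 and Gja1 were at 135.4 TPM or more in all 8 libraries, while Gjb6 did not pass 0.27 TPM. The summed TPM of 10 microglial markers lay between 2.4 and 9.69.

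The start of each gene was read in the RefSeq promoter table of GRCm38.p6, where a window holds 250 bases before and 50 bases after a transcription start. Windows were found for 70 of the 86 genes, 3 of them by an older symbol, which gave 76 windows. Transcription factors known to act on respiratory genes recognise short words, and 5 such words were searched on both strands. The NRF1 core CGCATGCG was in 11.8% of the 76 windows and in 1.87% of all 32851 windows in the table. The ETS site CCGGAAG, read by GABPA, was in 21.1% against 8.86%, and the YY1 site AAGATGGC was in 15.8% against 2.75%. The ERR half-site AAGGTCA was in 10.5% against 4.72%, and the CCAAT box CCAAT was in 42.1% against 37.4%. All 5 words were more frequent in these windows than over the table, the CCAAT box by the least, and a match describes letters only, not a site that is bound.

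Levels are compared between genes as TPM, which is scaled by transcript length. Atp5b, the catalytic beta subunit of ATP synthase, had the highest mean over the 8 libraries of all 86 genes, at 1966 TPM. The lowest mean counted with complex V was 21.5 TPM for Atp5sl, whose product is not a subunit. The lowest among the subunits of complex V was 330.2 TPM for Atp5f1. In complex IV the highest mean was 965.2 TPM for Cox4i1, the common form of a regulatory subunit, and 3 genes of that complex, Cox7b2, Cox8b and Cox8c, had a count of 0 in all libraries, which allows at most 3 counts each (counting error only). Complex III ran from 198.8 TPM for Cyc1 to 592.6 TPM for Uqcr11, complex II from 205.8 TPM for Sdhd to 294.4 TPM for Sdha, and complex I from 40.2 TPM for Ndufa11 to 661.04 TPM for Ndufa3. These means pool control KD and GSTM1 KD, and in basal control KD alone the order differed in places. There Uqcrfs1 was the lowest complex III gene at 191.5 TPM and Uqcrh the highest at 577.9 TPM, with Cyc1 at 276.6 TPM. Sdhc was the highest complex II gene at 262.7 TPM, with Sdha at 248.7 TPM. Atp5s, whose product is not a subunit either, was the lowest gene counted with complex V at 17.8 TPM, with Atp5f1 at 308.7 TPM.

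The main comparison asked how the subunit genes differ between GSTM1 KD and control KD astrocytes in each state. At the basal level 3 of the 80 genes that passed the filter on low counts were past an adjusted p of 0.05 in edgeR's quasi-likelihood test: Uqcr10 and Cox7a2l were higher in GSTM1 KD and Cyc1 was lower. After TNF-α, 5 of 81 were past it, with Uqcr10, Cox6c, Ndufs4 and Ndufa4 higher and Cyc1 lower. With the replicate number as a block, 15 of 80 and 20 of 81 passed, both smaller shares than those of all genes in that fit. Of the basal log2 fold changes, 77 of 80 lay within 0.5 of zero, and of those after TNF-α, 75 of 81, most of them slightly above it. These differences are log2 fold changes of normalised counts, in which 1 unit is a doubling, and bulk RNA cannot tell fewer cells of a type from less RNA per cell.

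Counted against all genes tested, the share past the threshold was not high. At the basal level 2 of 80 subunit genes were called higher, where 4.6% of all genes tested were, and 1 of 80 lower, where 5.62% were. After TNF-α 4 of 81 were called higher against 7.26% of all genes, and 1 of 81 lower against 8.92%. The sign was less even: 64 of 80 subunit genes (80.0%) had a log2 fold change above zero at the basal level, against 49.7% of all genes tested, and 66 of 81 (81.5%) after TNF-α, against 49.0%. Their median log2 fold change was 0.15 in the basal state and 0.17 with TNF-α, and the medians of all genes tested were -0.00 and -0.01.

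In 53 of the 80 subunit genes both basal GSTM1 KD libraries lay above both control KD libraries, where 32.3% of all genes tested did so, and in 8 both lay below, where 31.2% did. After TNF-α 57 of 81 lay above with no overlap, against 34.7% of all genes, and 8 lay below, against 31.9%. At an unadjusted p under 0.05 there were 19 subunit genes (23.8%) in the basal state, where 31.6% of all genes tested were, and 28 (34.6%) with TNF-α, where 36.2% were. The subunit genes have short transcripts, with a median effective length of 483 bases against 2296 over all genes tested, and 65 of 82 are under 1000 bases. All genes under 1000 bases had a median log2 fold change of -0.00 in the basal state and 0.02 with TNF-α.

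**Figure D1:**
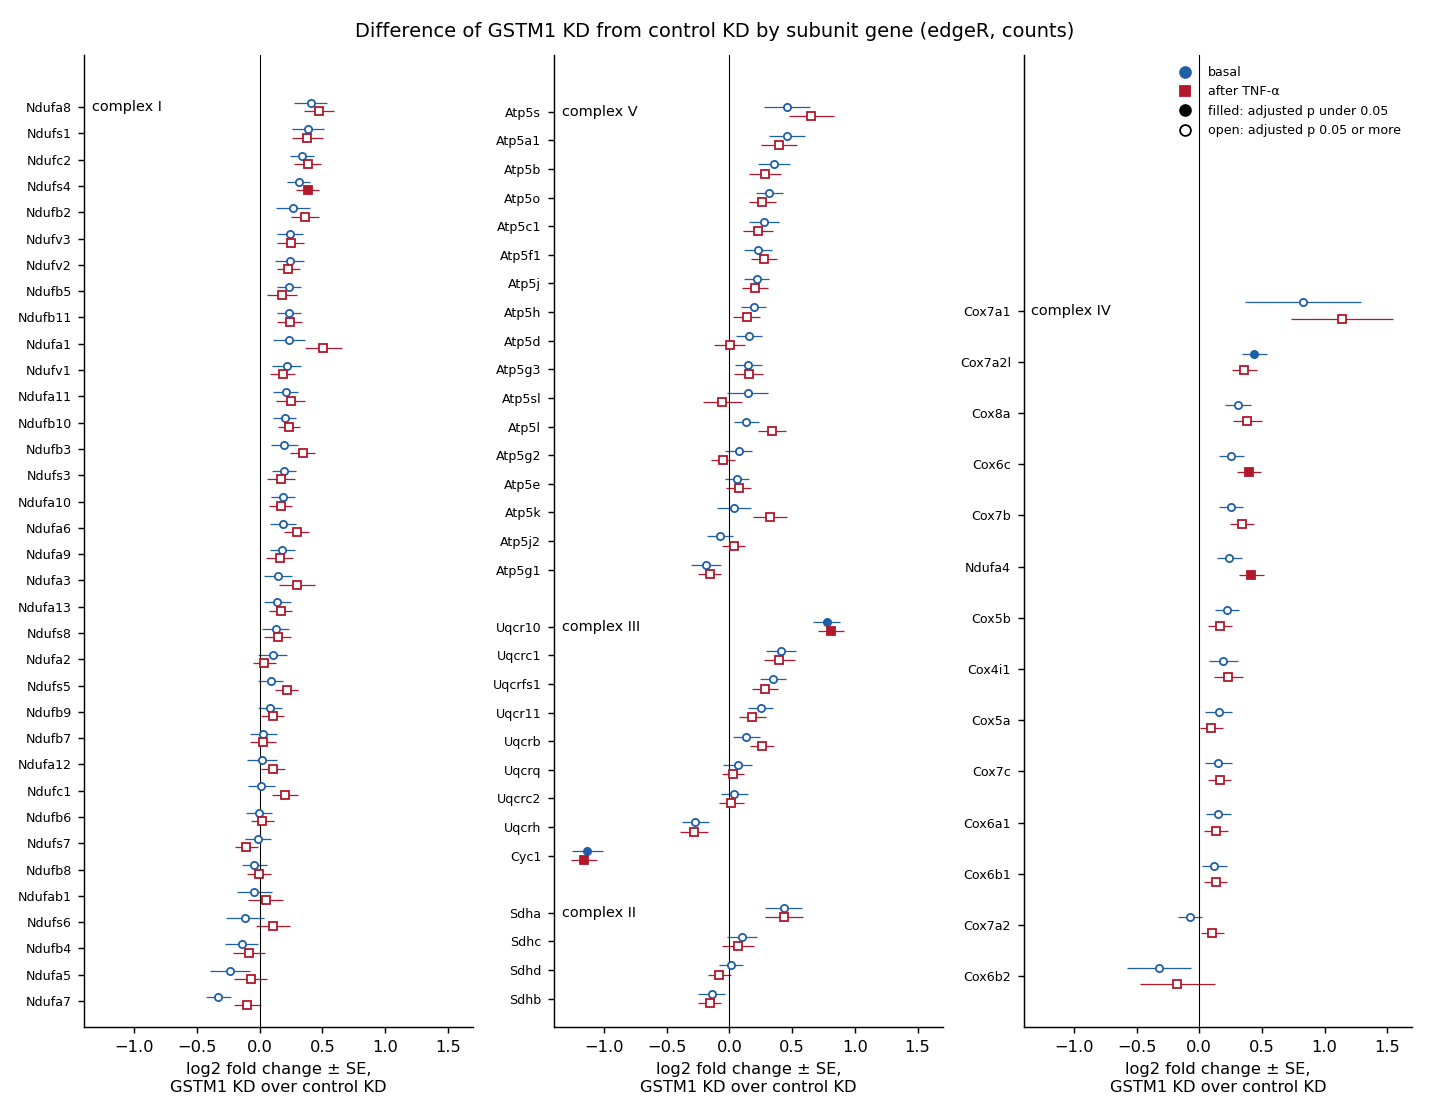
Log2 fold change of GSTM1 KD over control KD (horizontal axis, edgeR on counts, bars are 1 SE, 2 libraries per group) for the subunit genes tested, ordered within each complex by the basal value, with circles for the basal state and squares for after TNF-α. Filled symbols passed an adjusted p of 0.05; most symbols lie a little right of zero, Cyc1 lies at -1.13 and -1.16 and Uqcr10 at 0.77 and 0.81, and Cox6a2, whose counts are too low, and 1 gene that is not reported are not drawn.

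Summed over all 86 genes, the basal control KD libraries held 27746 and 28708 TPM and the basal GSTM1 KD libraries 32948 and 33554 TPM. The sums after TNF-α were 26303 and 28002 TPM for control KD, against 30972 and 33052 TPM for GSTM1 KD. Both GSTM1 KD libraries lay above both control KD libraries in each state. The ratio of the group means was 1.18 ± 0.03 in the basal state and 1.18 ± 0.08 with TNF-α (SD propagated from 2 libraries per group). With 2 libraries against 2, the smallest exact permutation p is 0.333, so a permutation test on these sums cannot pass, and no other test was made on them.

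By complex, the ratio of summed TPM at the basal level ran from 1.13 for complexes I and II to 1.22 for complex V. The sums of GSTM1 KD lay above those of control KD with no overlap in all 5 complexes at the basal level and in 4 after TNF-α, the exception being complex II, at 883.03 and 1010 TPM in control KD and 995.03 and 1085 TPM in GSTM1 KD. Complex III depended on the scale, since its basal ratio was 1.16 by TPM but 1.05 by CPM (counts scaled to library size), which are not scaled by transcript length.

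**Figure D2:**
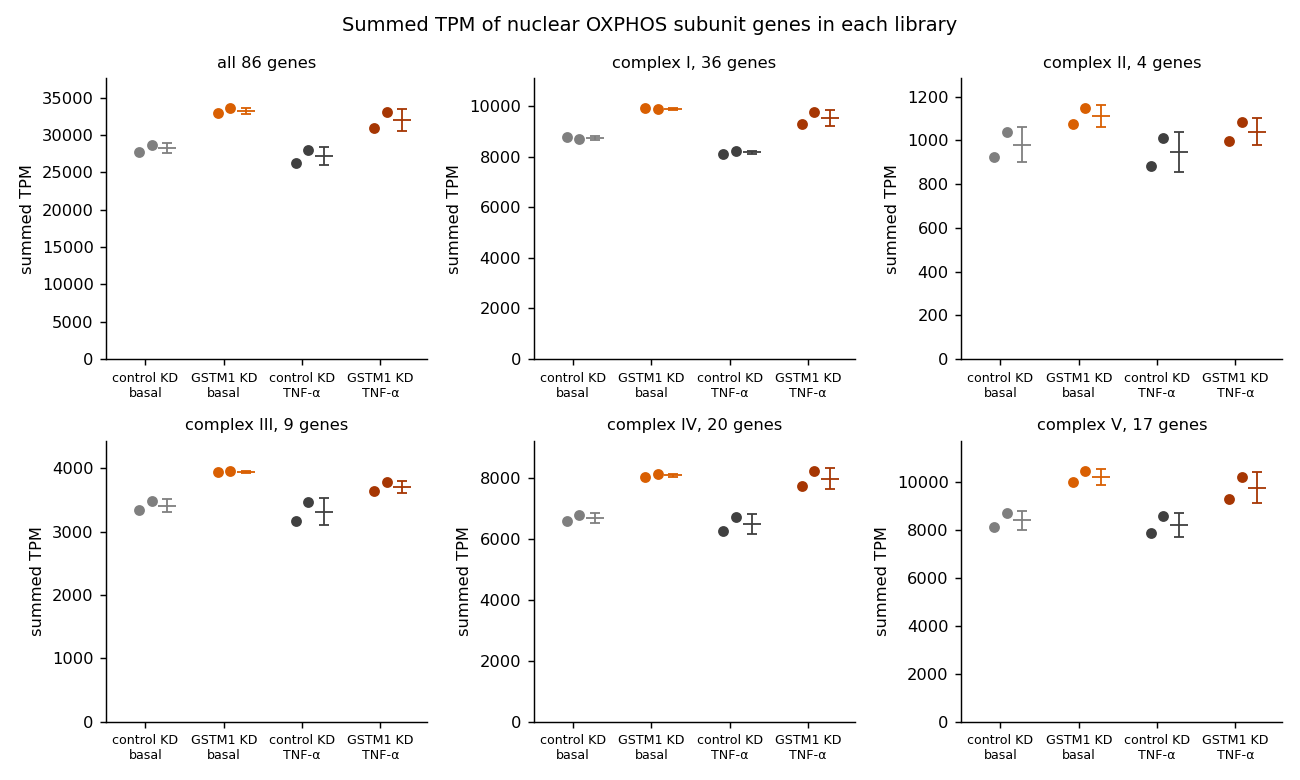
Summed TPM (vertical axes, starting at 0) of all 86 subunit genes and of the genes of each complex in the 4 groups. Points are libraries and the bar beside them is the mean ± SD of 2; the GSTM1 KD points lie above the control KD points of the same state in every panel except complex II after TNF-α, where the groups overlap.

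The calls rested on few libraries. Without either basal GSTM1 KD library no subunit gene passed, and without either TNF-α GSTM1 KD library none passed, but over all genes the calls also fell, to 1 higher without replicate 1 and 1 higher and 2 lower without replicate 2 at the basal level, and to 0 without replicate 1 and 63 higher and 31 lower without replicate 2 after TNF-α. Without control KD replicate 1, 4 of 81 subunit genes (4.94%) were past the threshold in the basal state, where 14.3% of all genes were, and 6 of 80 (7.5%) with TNF-α, where 18.3% were, with 2 of the 5 genes called with all libraries among them. Without control KD replicate 2, 12 of 81 subunit genes (14.8%) were past the threshold in the basal state, where 34.2% of all genes were, and 22 of 80 (27.5%) with TNF-α, where 32.9% were. The median stayed between 0.13 and 0.23 over all these subsets. A library left alone in its group was assumed to vary like the other group.

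Complex I takes electrons from NADH and is the largest of the complexes. In the basal state edgeR and DESeq2 both called 0 of its 36 genes, where they called 10.2% and 16.8% of all genes tested. In edgeR 5 of the 36 had an unadjusted p under 0.05. After TNF-α Ndufs4 passed, where 7.26% of all genes tested were called higher, and 10 had an unadjusted p under 0.05. Both counts at an unadjusted p lie below the 31.6% and 36.2% of all genes tested. The median log2 fold change of its genes was 0.16 and 0.17. Ndufs4 codes for an accessory subunit of the NADH-binding arm whose loss causes Leigh syndrome, a childhood disease of the brain. It had 62.6 and 62.4 CPM in basal control KD and 79.1 and 75.8 CPM in basal GSTM1 KD, and after TNF-α 57.3 and 59.3 CPM against 74.6 and 80.1 CPM. The GSTM1 KD libraries were higher than the control KD libraries in both states with no overlap. The log2 fold change was 0.31 ± 0.09 (SE, adjusted p = 0.0928) in the basal state and 0.38 ± 0.09 (adjusted p = 0.0486) with TNF-α, just inside the threshold.

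Ndufs4 lies at chr13:114287795-114388258 on the minus strand of GRCm38. Its promoter window, chr13:114388045-114388344 on the minus strand, is shown because it holds the YY1 site in the bases that follow the start, in capitals.
Ndufs4: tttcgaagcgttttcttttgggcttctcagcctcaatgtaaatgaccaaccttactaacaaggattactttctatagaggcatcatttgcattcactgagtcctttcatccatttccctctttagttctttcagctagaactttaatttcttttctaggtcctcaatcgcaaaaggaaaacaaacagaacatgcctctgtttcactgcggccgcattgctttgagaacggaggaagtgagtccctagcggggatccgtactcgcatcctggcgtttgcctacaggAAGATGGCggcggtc
The other 4 words searched were not in this window.

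The 7 core subunits of complex I, which bind the flavin and the iron-sulfur clusters or form the quinone site and are kept from bacteria to mammals, did not pass in either state. Ndufs1, the largest of them, had 125.8 and 147.4 CPM in basal control KD and 170.7 and 185.9 CPM in basal GSTM1 KD, with a log2 fold change of 0.38 ± 0.13 (adjusted p = 0.106). Ndufv1 and Ndufv2, of the NADH-oxidising module, stood at 0.22 and 0.24 at the basal level and 0.18 and 0.23 after TNF-α. Ndufs3 and Ndufs8 stood at 0.19 and 0.13, and Ndufs7, next to the quinone site, at -0.01. After TNF-α the core subunits ran from -0.11 for Ndufs7 to 0.38 for Ndufs1, so they lay on both sides of zero.

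Among the accessory subunits of complex I, Ndufa8 had the largest basal log2 fold change, 0.41 ± 0.13 (adjusted p = 0.102), and 0.48 ± 0.12 after TNF-α (adjusted p = 0.0502), just outside the threshold. Ndufa7 had the lowest, at -0.33 ± 0.10 (adjusted p = 0.094) in the basal state, where it passed in 2 of the 9 alternatives that kept all libraries, and -0.10 ± 0.11 with TNF-α, where it passed in 0. Ndufb4, Ndufa5 and Ndufb8 also lay below zero in both states, at most 0.24 from it, without passing.

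Complex II is succinate dehydrogenase, shared by the respiratory chain and the citric acid cycle, and all of its subunits are coded in the nucleus. None of its 4 genes passed in either state in edgeR, where 10.2% and 16.2% of all genes tested did. In each state 1 had an unadjusted p under 0.05 in edgeR, beside 31.6% and 36.2% of all genes tested. DESeq2 called 0 of the 4, where it called 16.8% and 19.8% of all genes tested. Sdha, the flavoprotein with the active site, had 351.2 and 409.6 CPM in basal control KD and 470.7 and 557.5 CPM in basal GSTM1 KD, without overlap. Its log2 fold change was 0.43 ± 0.15 in both states (adjusted p = 0.114 and 0.105), and it passed in 2 of the 9 alternatives that kept all libraries in each state. Sdhb, the iron-sulfur subunit, stood at -0.14 and -0.16, and the membrane anchors Sdhc and Sdhd at 0.10 and 0.01 at the basal level and 0.07 and -0.08 after TNF-α.

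Complex III, the cytochrome bc1 complex, held both the largest rise and the largest fall among the subunit genes called, and these had the smallest adjusted p-values in both states. Cyc1 codes for cytochrome c1, the haem protein that hands electrons to cytochrome c. It had 191.4 and 179.7 CPM in basal control KD and 91.3 and 78.0 CPM in basal GSTM1 KD. After TNF-α it had 185.7 and 176.1 CPM in control KD and 86.6 and 78.3 CPM in GSTM1 KD. All 4 GSTM1 KD libraries lay below all 4 control KD libraries. The log2 fold change was -1.13 ± 0.12 (adjusted p = 0.0161) in the basal state and -1.16 ± 0.11 (adjusted p = 0.0105) with TNF-α, or 0.456 and 0.448 of the control level. Counts behind these values ran from 1363 to 6769 per library.

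Uqcr10 codes for a small accessory subunit of complex III. It had 43.0 and 40.4 CPM in basal control KD and 73.9 and 68.8 CPM in basal GSTM1 KD, and after TNF-α 39.5 and 38.4 CPM against 66.3 and 72.7 CPM. All 4 GSTM1 KD libraries lay above all 4 control KD libraries. The log2 fold change was 0.77 ± 0.11 (adjusted p = 0.0212) and 0.81 ± 0.10 (adjusted p = 0.0134), or 1.71-fold and 1.75-fold. Cyc1 and Uqcr10 were also past the threshold under all 9 alternative settings that kept every library, with log2 fold changes between -1.16 and -1.03 for Cyc1 and between 0.75 and 0.88 for Uqcr10 at the basal level. Without either GSTM1 KD library they were not called, with adjusted p-values of up to 0.153 for Cyc1 and 0.168 for Uqcr10 at the basal level and 0.0755 and 0.123 after TNF-α.

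Cyc1 lies at chr15:76343523-76346260 on the plus strand and Uqcr10 at chr11:4701973-4704342 on the minus strand of GRCm38, and neither shares exon bases with another gene in the GENCODE M21 annotation. The promoter window of Uqcr10, chr11:4704295-4704594 on the minus strand, is shown as that of the gene that rose in both states. It holds the CCAAT box as its reverse complement, in capitals, before the start.
Uqcr10: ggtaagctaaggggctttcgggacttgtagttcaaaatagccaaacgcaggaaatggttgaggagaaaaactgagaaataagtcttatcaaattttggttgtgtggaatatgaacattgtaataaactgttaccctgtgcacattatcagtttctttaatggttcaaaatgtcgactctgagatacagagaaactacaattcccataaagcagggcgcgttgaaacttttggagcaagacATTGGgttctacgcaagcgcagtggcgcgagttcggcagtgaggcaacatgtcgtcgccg
The other 4 words were not in this window.

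Of the other complex III genes, Uqcrc1 and Uqcrfs1 lay above zero without passing. Uqcrc1 codes for a core protein of the complex, and stood at 0.41 ± 0.12 and 0.40 ± 0.12 (adjusted p = 0.0865 and 0.0805). Uqcrfs1, the Rieske iron-sulfur protein from which cytochrome c1 takes electrons, stood at 0.35 ± 0.11 and 0.28 ± 0.10. Uqcrh codes for the hinge protein, which binds cytochrome c1, and it lay below control in both states with no overlap, at -0.27 ± 0.11 and -0.28 ± 0.11, but did not pass (adjusted p = 0.151 and 0.136). Uqcrc2, Uqcrq, Uqcrb and Uqcr11 ran from 0.04 to 0.25 at the basal level.

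Within each library, Cyc1 had 0.671 to 0.75 of the median TPM of the other 8 complex III genes in control KD and 0.222 to 0.29 in GSTM1 KD. Uqcr10 had 0.884 to 0.935 of that median in control KD and 1.32 to 1.38 in GSTM1 KD. The messengers of the complex were therefore in different proportions in the GSTM1 KD libraries, which shows an unequal difference and not which of them stayed the same.

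**Figure D3:**
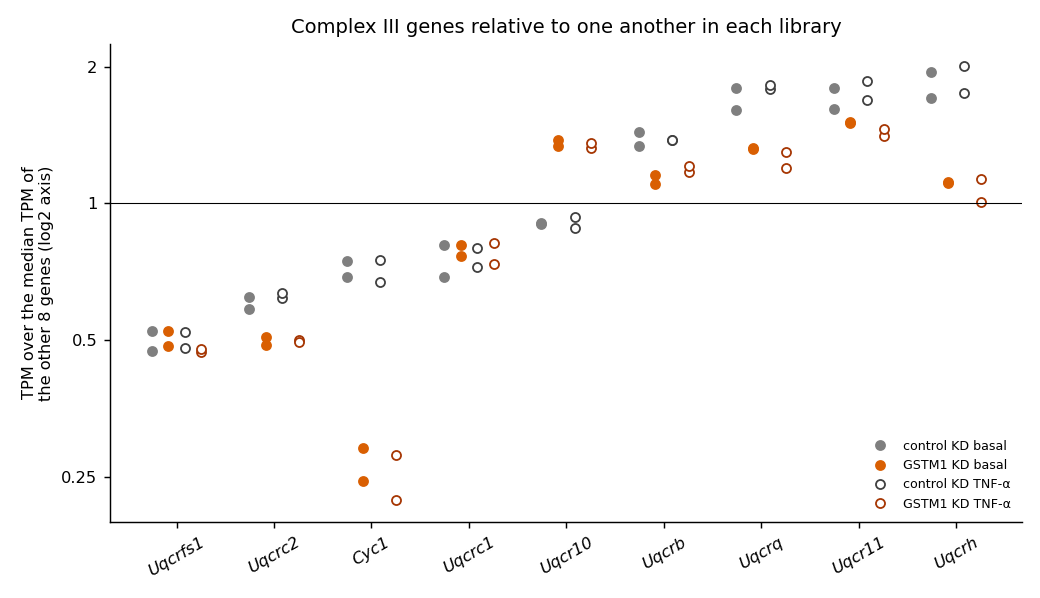
TPM of each complex III gene divided by the median TPM of the other 8 complex III genes (vertical axis, log2 scale) in each of the 8 libraries, 2 points per group. Cyc1 lies at 0.29 or less in the GSTM1 KD libraries and at 0.67 or more in control KD, and Uqcr10 lies above 1 in the GSTM1 KD libraries and below 1 in control KD.

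Complex IV, cytochrome c oxidase, reduces oxygen. At the basal level only Cox7a2l, whose product is not a subunit of the complex, passed among 14 genes tested. After TNF-α Ndufa4 and Cox6c passed among 15. All of these were higher, where 4.6% and 7.26% of all genes tested were called higher. The median log2 fold changes were 0.21 and 0.16. Cox7a2l codes for a protein that can tie complex III to complex IV in supercomplexes, which was not measured in these cells. It had 85.5 and 86.9 CPM in basal control KD and 118.2 and 115.7 CPM in basal GSTM1 KD, and 83.4 and 92.9 CPM against 110.9 and 119.4 CPM after TNF-α. The groups did not overlap in either state. The log2 fold change was 0.44 ± 0.10 (adjusted p = 0.0459) in the basal state and 0.36 ± 0.10 (adjusted p = 0.066) with TNF-α.

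Ndufa4 codes for a subunit of complex IV that was first described in complex I. It had 114.9 and 118.7 CPM in basal control KD and 135.8 and 140.02 CPM in basal GSTM1 KD, and after TNF-α 101.4 and 106.6 CPM against 133.0 and 149.5 CPM. Again the groups did not overlap in either state. The log2 fold change was 0.24 ± 0.10 (adjusted p = 0.168) and 0.42 ± 0.10 (adjusted p = 0.0489).

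Cox6c codes for another small nuclear subunit. It had 98.8 and 91.9 CPM in basal control KD and 113.5 and 114.2 CPM in basal GSTM1 KD, and after TNF-α 94.8 and 97.3 CPM against 123.8 and 133.7 CPM. The GSTM1 KD libraries were above control KD in both states, at 0.26 ± 0.10 (log2 fold change, adjusted p = 0.153) and 0.40 ± 0.09 (adjusted p = 0.045). Cox6c, at chr15:35925886-35938246 on the minus strand, shares exon bases with Vps13b on the opposite strand, and whether the authors' counting used the strand is not stated.

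With the deposited effective lengths as offsets, Cox7a2l had an adjusted p of 0.0504. Over the 9 alternatives that kept all libraries, Cox6c passed in 7, Ndufs4 in 7 and Ndufa4 in 8 after TNF-α, and Cox7a2l passed in 8 at the basal level. In the other state of each gene, Cox7a2l passed in 4, Ndufs4 in 2, and Cox6c and Ndufa4 in 0. Ndufa4, Cox6c and Ndufs4 were called in 1 of the 4 subsets that leave out a library and Cox7a2l in 2, beside 2 for Cyc1 and Uqcr10 in each state.

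**Figure D4:**
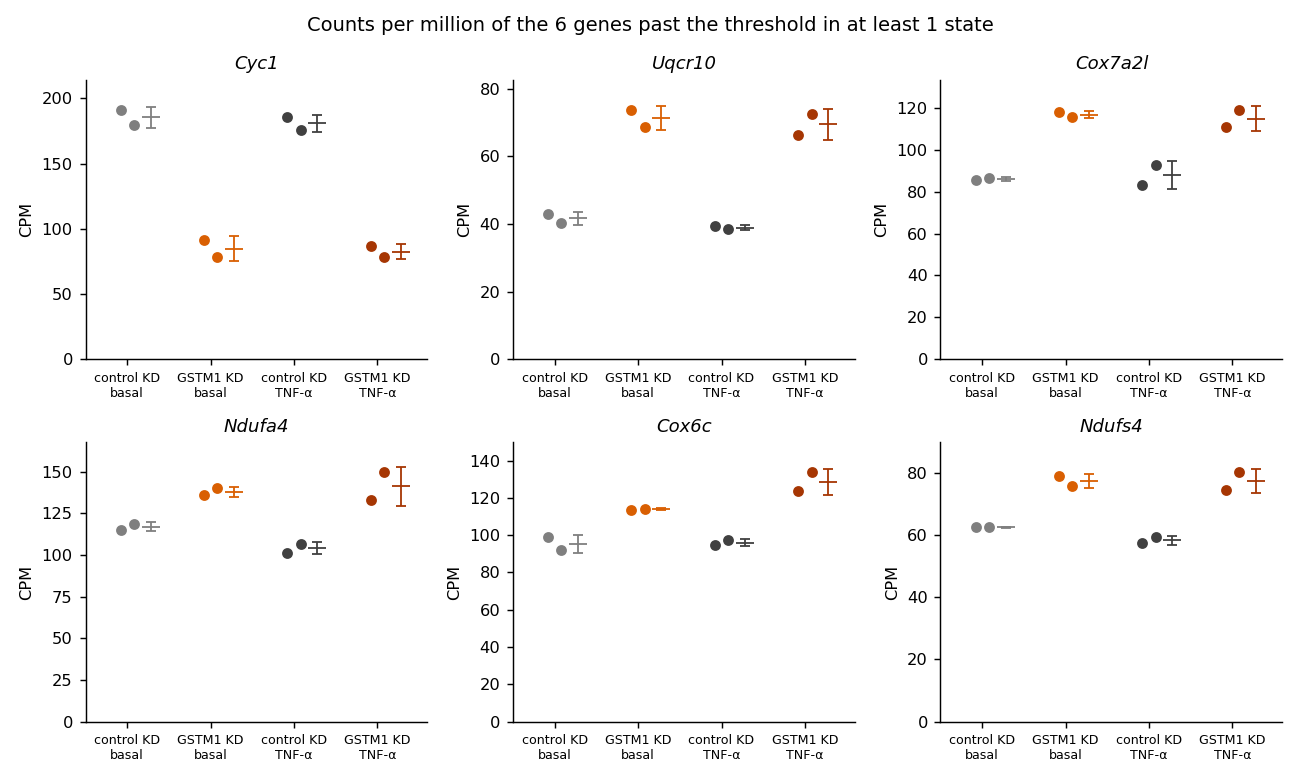
CPM (vertical axes, starting at 0) of the 6 subunit genes past an adjusted p of 0.05 in at least 1 state. Points are libraries and the bar beside them is the mean ± SD of 2; in each panel both GSTM1 KD points of a state lie on the same side of both control KD points, below them for Cyc1 and above them for the other 5.

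The promoter windows of Cox7a2l and Ndufa4 are shown as those of the remaining genes called that the table holds. Cox7a2l lies at chr17:83501918-83517330 and Ndufa4 at chr6:11900292-11907497, both on the minus strand of GRCm38. The windows are chr17:83514284-83514583 and chr6:11907401-11907700. All of the Cox7a2l window lies inside the GENCODE M21 span of that gene, short of its upstream end at 83517330. Neither window holds any of the 5 words, so no letters are in capitals.
Cox7a2l: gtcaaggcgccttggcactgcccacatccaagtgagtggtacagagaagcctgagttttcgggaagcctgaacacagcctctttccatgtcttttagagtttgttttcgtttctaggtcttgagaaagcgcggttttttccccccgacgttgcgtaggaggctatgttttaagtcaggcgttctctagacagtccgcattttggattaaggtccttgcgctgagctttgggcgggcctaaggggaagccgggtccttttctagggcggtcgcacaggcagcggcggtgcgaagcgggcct
Ndufa4: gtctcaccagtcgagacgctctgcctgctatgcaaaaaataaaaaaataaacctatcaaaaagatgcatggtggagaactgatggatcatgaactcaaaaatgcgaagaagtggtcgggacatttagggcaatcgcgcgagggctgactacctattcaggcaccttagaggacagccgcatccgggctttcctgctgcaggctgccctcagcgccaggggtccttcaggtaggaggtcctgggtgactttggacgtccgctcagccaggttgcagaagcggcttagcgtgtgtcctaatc
No window was in the table for Cyc1 and Cox6c.

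Complex IV also has forms restricted to heart, skeletal muscle, testis or lung. Cox7b2, Cox8b and Cox8c had no count, and Cox4i2 and Ndufa4l2 had between 1 and 14 counts in each library. Cox6a2, the muscle form of a subunit of which Cox6a1 is the common form, had 12 and 9 counts in TNF-α control KD and 2 and 0 in TNF-α GSTM1 KD, with an adjusted p of 0.0542. After TNF-α it was called lower in 4 of 8 alternatives that kept all libraries, with adjusted p from 0.0132 to 0.0804. Since its GSTM1 KD libraries are at or below 3 counts, no fold change is given. Cox6b2, the testis form, stood at 35.5 to 57.1 TPM and made up 5.03% to 8.62% of the sum of Cox6b1 and Cox6b2.

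Cox7a1, the muscle form of a subunit of which Cox7a2 is the common form, had 9.76 and 24.9 TPM in basal control KD and 32.8 and 30.6 TPM in basal GSTM1 KD. After TNF-α it had 11.5 and 25.5 TPM against 38.7 and 44.1 TPM. The GSTM1 KD libraries were higher without overlap, but the 2 control KD libraries of a state differed from each other by over 2-fold. The log2 fold change was 0.83 ± 0.46 (adjusted p = 0.272) and 1.14 ± 0.41 (adjusted p = 0.109), which does not pass. Its part of the sum of Cox7a1 and Cox7a2 ran from 3.15% to 12.6%.

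Complex V is ATP synthase, with a catalytic F1 head and a membrane rotor. None of its 17 genes passed in either state in edgeR, where 10.2% and 16.2% of all genes tested did. In each state 4 had an unadjusted p under 0.05, beside 31.6% and 36.2% of all genes tested. DESeq2 called 1, Atp5a1 in the basal state, and 0 after TNF-α, where it called 16.8% and 19.8% of all genes tested. Over the 9 alternatives that kept all libraries, Atp5a1 passed in 3 at the basal level, with adjusted p from 0.00873 to 0.101, and in 2 after TNF-α, from 0.0139 to 0.122. The median log2 fold change was 0.15 and 0.21. All 5 genes of the F1 head lay above zero in both states, but not all by more than their SE. Atp5d stood at 0.002 ± 0.12 after TNF-α, and Atp5e at 0.06 ± 0.10 and 0.07 ± 0.10. Atp5a1, the alpha subunit, stood at 0.46 ± 0.14 and 0.39 ± 0.14 (adjusted p = 0.0958 and 0.112). Atp5b, the beta subunit, had 1123 and 1206 CPM in basal control KD and 1438 and 1541 CPM in basal GSTM1 KD, without overlap, and stood at 0.35 ± 0.13 and 0.29 ± 0.13 (adjusted p = 0.131 and 0.173). Atp5s, which codes for a coupling factor, stood at 0.46 ± 0.18 and 0.65 ± 0.18 (adjusted p = 0.157 and 0.0628), and Atp5sl at 0.15 and -0.06.

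Atp5g1, Atp5g2 and Atp5g3 code for the same mature protein, the c subunit of the rotor ring. By TPM, Atp5g3 gave 47.9% to 56.1% of their sum, Atp5g1 25.02% to 31.5% and Atp5g2 18.9% to 21.4%. The Atp5g1 part was 27.9% or more in the 4 control KD libraries and 26.1% or less in the 4 GSTM1 KD libraries. Atp5g1 stood at -0.19 and -0.16, and Atp5g3 at 0.15 in both states, without passing. RSEM divides reads that match several of these copies, so their split is an estimate. In all, 24 of the 86 genes have counts that are not whole within 0.02, and 30 share exon bases with another gene, 27 of them on the opposite strand.

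The basal and TNF-α comparisons of GSTM1 KD with control KD share no library, but the deviations of same-numbered control KD libraries from their group means correlated between the states at r = 0.706 across the 82 subunit genes, which are not independent replicates. Over the 80 genes tested in both, 61 lay above zero in both and 11 below zero in both, and 73 had values that differed by less than 0.2. The 5 genes that differed most were Cox7a1, Atp5k, Ndufa1, Ndufa7 and Ndufs6. Atp5k stood at 0.04 and 0.32, Ndufa1 at 0.23 and 0.51, Ndufa7 at -0.33 and -0.10, and Ndufs6 at -0.12 and 0.11. The difference of the responses was tested directly as an interaction over all 8 libraries. In edgeR's quasi-likelihood test 0 of 82 subunit genes passed and 0 had an unadjusted p under 0.05. Over all genes tested 0% passed in edgeR and 295 had an unadjusted p under 0.05. DESeq2 called 0 subunit genes and 0.176% of all genes tested. A gene called in one state and not in the other was therefore not shown to differ between them.

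The response to TNF-α itself was compared within each knockdown, in a fit over all 8 libraries, which are the same as those of the knockdown comparisons. In control KD, 0 of 82 subunit genes passed, higher or lower, where 2.1% of all genes tested were called higher and 0.528% lower. The count at an unadjusted p under 0.05 was 2, where 12.5% of all genes tested were under it. DESeq2 called 0, where it called 4.96% of all genes tested. The subunit genes lay slightly below zero, 71 of 82, with a median log2 fold change of -0.06 beside -0.02 over all genes, of which 45.2% lay above zero. All genes under 1000 bases had a median of -0.05, with 37.6% above zero. Leaving out 1 control KD library turned the sign of 14 to 29 of the 82 genes, the most without replicate 1 after TNF-α, where the median was -0.0135. The smallest p-values belonged to accessory subunits of complex I, Ndufb10 at -0.19 ± 0.07 (adjusted p = 0.318), Ndufa6 at -0.22 ± 0.09 (adjusted p = 0.347) and Ndufv3 at -0.22 ± 0.10 (adjusted p = 0.438). Of those above zero, Atp5g2, Atp5d and Cox6a2 had the smallest p-values, at 0.05, 0.06 and 0.37 ± 0.74. The Cox6a2 value rests on few counts, 22 and 4 in basal control KD and 12 and 9 after TNF-α.

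In GSTM1 KD, 0 of 82 passed, where 2.35% of all genes tested were called higher and 0.294% lower. None had an unadjusted p under 0.05, where 10.9% of all genes tested did. DESeq2 called 0, where it called 4.22% of all genes tested. The median log2 fold change was -0.02 beside -0.01 over all genes, and 54 of 82 lay below zero. Leaving out 1 GSTM1 KD library turned the sign of 15 to 20 of the 82 genes. Cox6c at 0.18 ± 0.08 (adjusted p = 0.53), Ndufc1 at 0.14 and Ndufa7 at 0.14 had the smallest p-values above zero, and Ndufv3 at -0.19 ± 0.10 and Ndufb10 at -0.14 ± 0.07 had the smallest below it, with Cox6a2. The median SE of these log2 fold changes was 0.09 in both knockdowns. Cyc1 was at -0.04 ± 0.11 in both knockdowns.

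**Figure D5:**
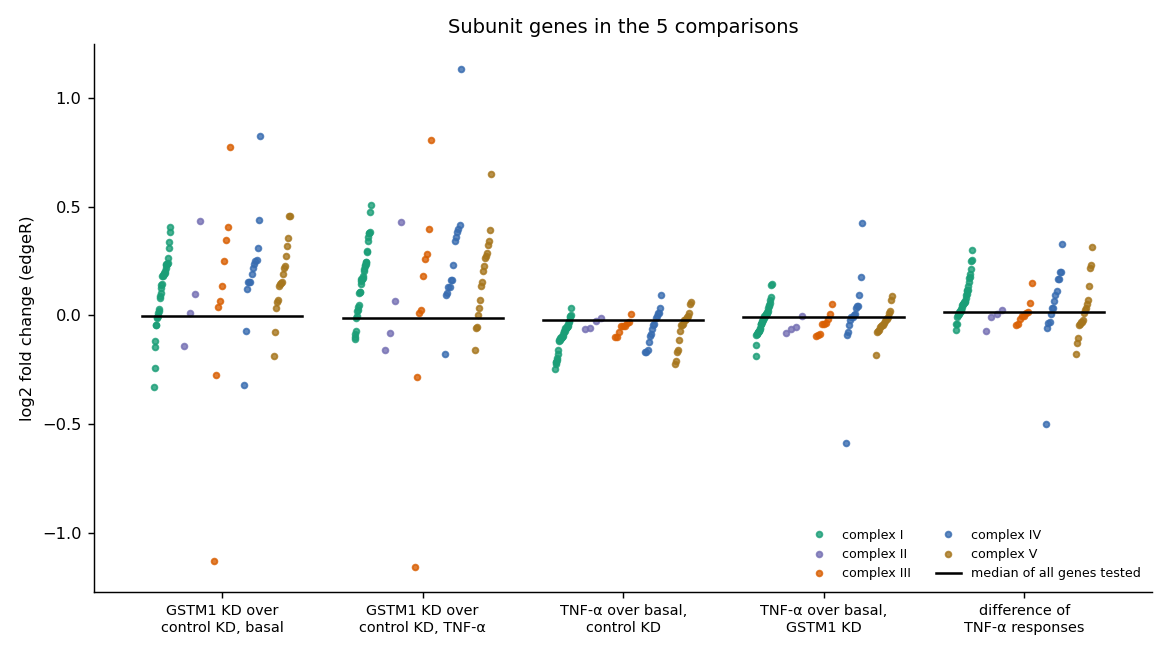
Log2 fold changes (vertical axis, edgeR) of the subunit genes tested in each of the 5 comparisons (horizontal axis), 1 point per gene, coloured by complex, with a line at the median of all genes tested; Cox6a2 is not drawn. Most points of the knockdown comparisons lie above the line, while those of the TNF-α responses lie close to it, with medians of -0.06 and -0.02.

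The 13 subunits coded in mitochondrial DNA, which the rule does not take, complete complexes I, III, IV and V. Their summed TPM was 31605 and 36045 in basal control KD and 44826 and 44312 in basal GSTM1 KD, and after TNF-α 32103 and 30409 against 44700 and 46778. The GSTM1 KD libraries were above control KD in both states without overlap. In edgeR 1 of the 13, mt-Nd1 at 0.67 ± 0.12 (adjusted p = 0.0329), rose at the basal level, and 9 rose after TNF-α, from 0.52 for mt-Nd5 to 1.66 for mt-Nd3, where 4.6% and 7.26% of all genes tested were called higher. At the basal level mt-Nd3 stood at -0.58 ± 0.16 (adjusted p = 0.0788), the only one of the 13 below zero. Median log2 fold changes were 0.32 and 0.59. Usmg5, an ATP synthase subunit with a symbol outside the rule, stood at -0.44 ± 0.11 (adjusted p = 0.0658) at the basal level and fell after TNF-α, at -0.41 ± 0.09 (adjusted p = 0.0432). Cycs, cytochrome c, which receives electrons from cytochrome c1, stood at -0.07 and 0.13, and Atpif1, the inhibitor of ATP synthase, at 0.21 in both states.

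Of 45 assembly factors tested, which build the complexes without being part of them, 2 rose in the basal state and 3 with TNF-α and none fell, with medians of 0.05 and -0.04. Of all genes tested, 4.6% and 7.26% rose, and these counts are near that background. The genes called, known as complex IV assembly factors, were Coa5 at 0.62 ± 0.11 and 0.55 ± 0.10 (adjusted p = 0.0311 and 0.0268), Cox19 at 0.64 ± 0.14 and 0.61 ± 0.14 (adjusted p = 0.0442 and 0.0422), and Cox14 after TNF-α at 0.47 ± 0.11 (adjusted p = 0.0424).

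Of 12 regulators of mitochondrial biogenesis, Ppargc1a and Esrra rose and Pprc1 fell at the basal level, and Ppargc1a rose and Pprc1 fell after TNF-α, beside 4.6% and 7.26% of all genes called higher and 5.62% and 8.92% called lower. Ppargc1a, which codes for the coactivator PGC-1alpha, had 34.3 and 41.02 CPM in basal control KD and 58.03 and 68.8 CPM in basal GSTM1 KD, with log2 fold changes of 0.75 ± 0.15 and 0.89 ± 0.15 (adjusted p = 0.0361 and 0.0229). Pprc1, a related coactivator, stood at -0.79 ± 0.14 and -1.01 ± 0.11 (adjusted p = 0.0293 and 0.0112). Esrra, the receptor ERRalpha, stood at 0.53 ± 0.10 at the basal level (adjusted p = 0.0352). The median of the 12 was -0.10 and -0.14.

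In neighbouring pathways, 2 of 16 citric acid cycle genes rose in each state and none fell, where the shares of all genes called higher were again 4.6% and 7.26%. They were Pdha1, of the pyruvate dehydrogenase that feeds the cycle, at 0.55 ± 0.12 and 0.51 ± 0.11, and Idh3a at 0.54 ± 0.12 and 0.51 ± 0.12. Their list medians were 0.17 and 0.14, close to those of the subunit genes. Of 19 glycolysis and lactate genes, Ldhb and Slc16a1 rose in both states, at 1.20 and 1.14 and at 1.17 and 1.15, and Hk2 fell after TNF-α, at -0.47 ± 0.09 (adjusted p = 0.0301). The median of the glycolysis list was 0.17 in both states.

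Markers of cell types differed with the knockdown as well. For comparison, 4.6% of all genes tested were called higher and 5.62% lower at the basal level, and 7.26% and 8.92% after TNF-α. The summed TPM of 12 astrocyte markers was 1680 and 3957 in basal control KD and 3810 and 5885 in basal GSTM1 KD, and 1651 and 3757 against 3617 and 5544 after TNF-α, so the ranges of the groups overlapped. Replicate 2 was above replicate 1 in all 4 groups, and in both states the GSTM1 KD library of each replicate number was above the control KD library of that number. Of 11 tested, S100b fell in both states and none rose. The summed TPM of 9 fibroblast and mural cell markers was 8340 and 7260 in basal control KD and 4521 and 3579 in basal GSTM1 KD, and 6905 and 6686 against 3951 and 3421 after TNF-α, without overlap. Of 8 tested, the contractile genes Acta2 and Tagln and the collagen Col1a2 fell in both states, Pdgfrb rose after TNF-α, and Lum did not pass 0.32 TPM. Oligodendrocyte lineage markers summed to 494.5 to 678.04 TPM at the basal level and 398.7 to 544.5 TPM after TNF-α, lower in GSTM1 KD, where Olig2 fell in both states, and Olig1 fell after TNF-α, and Mog did not pass 0.05 TPM. Neuronal markers summed to 168.1 to 232.4 TPM, with overlap of the groups in both states. Ependymal markers summed to 90.5 and 140.4 TPM in basal control KD and 128.3 and 139.5 TPM in basal GSTM1 KD, with overlap, and to 79.2 and 97.5 TPM against 113.6 and 126.1 TPM after TNF-α, without overlap and higher in GSTM1 KD, while 0 of 5 tested passed in either state. Endothelial markers summed to 5.75 to 8.27 TPM in control KD and 3.18 to 5.4 TPM in GSTM1 KD. Of 3 tested, 0 passed in either state, with Kdr at 1.39 and 1.25 and Cdh5 and Flt1 below zero in both. Choroid plexus markers summed to 0.4 to 2.54 TPM in control KD and 5.26 to 9.39 TPM in GSTM1 KD. The 1 gene tested, Folr1, a folate receptor, rose in both states. The 10 proliferation genes summed to 352.5 to 563.7 TPM, with none past the threshold. The part of these markers in the differences of the subunit genes was not tested.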

How the data were processed

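RNA-seq of 8 libraries was analysed as deposited. Per the labels and the study's methods, strand-specific libraries were mapped to GRCm38 (mm10) with STAR (version 2.5.4b) and quantified with RSEM (version 1.3.0). The strand setting of the counting is not given in the sources used here. The authors deposited expected counts, RSEM's estimate of the reads of each gene, which are not normalised and not always whole, because the authors' run divided reads that match several genes. The deposited TPM values were scaled by the authors' run to transcript length and to the same total in each library. The deposited effective length, in bases, is another column of the authors' tables.

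After rounding to whole counts, low genes were dropped by filterByExpr of edgeR (version 4.0.16, R version 4.3.3), libraries were scaled by TMM factors (0.958 to 1.03), and each contrast was tested by quasi-likelihood in edgeR, with p-values adjusted by Benjamini-Hochberg over all genes tested and a threshold of 0.05. Each adjusted p in the text is from edgeR unless another tool is named. Knockdown comparisons were fitted on the 4 libraries of a state, and the TNF-α responses and their difference on all 8. The SE of a log2 fold change is its size divided by the square root of F. CPM are the usual counts scaled to library size, with TMM applied. The fits were tested on simulated data. Alternatives were DESeq2 (version 1.42.0), other scalings and filters (no filter, or 10 counts or more in all libraries), a replicate block, the other libraries in the fit, effective length offsets, limma (version 3.58.1) on log2(TPM + 1) with at least 1 TPM in 2 libraries, and leaving out each replicate. Positions come from GENCODE M21 and promoters from RefSeq.

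Members and lists were chosen with earlier results of these data known. Named are the members past the threshold, the highest and lowest by mean TPM in each complex, the core complex I, complex II, tissue-restricted and non-subunit members, the 3 smallest p-values in each direction where none passes, the 5 that differ most between states, and up to 4 genes of each other list. Other genes of complexes I, III and V are named after their values were seen. The values of 1 member are not reported here, although it is counted in the totals.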

Additional observations from a re-analysis of the deposited data

How the results depend on the processing

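Counts of subunit genes past an adjusted p of 0.05 moved with the setting, while no gene that was called in either fit changed sign. At the basal level (3 in edgeR with TMM) they were 5 with DESeq2, 5 with no filter on low counts and 7 with the other libraries in the fit, or 6.25%, 6.02% and 8.54% of those tested, where 16.8%, 16% and 18% of all genes were called. After TNF-α (5) they were 9 with library size only, 17 with no filter, 17 with the other libraries and 3 with effective length offsets, or 11.1%, 20.5%, 20.7% and 3.7%, where 17.2%, 18.8%, 20.3% and 13.5% of all genes were called. With the replicate number as a block they were 15 (basal) and 20 (TNF-α), or 18.8% and 24.7%, where 31.6% and 29.5% of all genes were called. The blocked calls included Sdha in both states, Ndufa7 at the basal level and Cox6a2 after TNF-α. Deviations of same-numbered libraries correlated between groups at 0.1649 to 0.5752 over all genes and at -0.0648 to 0.706 over the subunit genes, the highest between basal and TNF-α control KD, but there are 2 numbers and no label says what they pair.

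Leaving out 1 library gave 0 to 12 calls (basal) and 0 to 22 calls (TNF-α), with medians of 0.14 to 0.17 and 0.13 to 0.23. The medians of the TNF-α response ranged from -0.109 to -0.0135 in control KD and from -0.0551 to 0.0149 in GSTM1 KD, and that of the difference of responses from -0.0158 to 0.0841, with 0 calls in all of these. The median knockdown difference was 0.20 with effective length offsets and 0.24 with limma on TPM at the basal level, and 0.23 with limma after TNF-α. The median TNF-α response in GSTM1 KD was -0.0672 with library size only, -0.0373 with no filter and -0.0685 with limma, and in control KD it was -0.0898 with library size only. Basal ratios of summed CPM were 1.1 for complex I, 1.05 for complex III and 1.15 for complex IV, below those of TPM. For these moves the cause was not tested. Other alternatives stayed within 1.5 times the count. Depth limits Cox4i2, Cox6a2 and Ndufa4l2, which had few counts in each library.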
